A study of Homo sapiens with 6 samples.

Results

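The 44 genes described here encode α-ketoglutarate-dependent dioxygenases, chosen as a fixed list of gene symbols, and all 44 symbols were found among 20163 protein-coding genes of the annotation. By substrate they were 18 histone demethylases, 4 DNA oxygenases, 5 RNA oxygenases, 14 protein hydroxylases and 3 AlkB homologues outside the other classes. A peak belonged to a gene when it overlapped the gene or the 1 kb on either side of any of its annotated start sites on hg19. This gave 87 of 31710 peaks in siCtrl, 87 of 29201 in siME2 and 84 of 28968 in siME2+αKG.

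These enzymes need ferrous iron and molecular oxygen and convert α-ketoglutarate to succinate while they hydroxylate their substrate. On an N-methyl group of a histone lysine or of a base the hydroxylated methyl group is lost as formaldehyde, so many members act as erasers of methylation. The TET enzymes oxidise the methyl group of 5-methylcytosine, which stays on the base, and the EGLN, P4HA and PLOD enzymes leave the hydroxyl group on HIF-α proteins or collagen. Malic enzyme 2, the enzyme knocked down in the study, makes pyruvate from malate in mitochondria.

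RNA polymerase II was mapped by ChIP-seq in SK-Hep1 cells, an established line from a human liver adenocarcinoma, with an anti-polymerase II antibody. The 3 conditions were a control siRNA, called siCtrl, a knockdown of malic enzyme 2 by siRNA, called siME2, and that knockdown together with α-ketoglutarate, called siME2+αKG, so the last 2 share the knockdown. The labels give no dose, time or siRNA sequence. A single ChIP library and its input stood for each condition, which leaves no replicate check and no test between conditions. The siCtrl and siME2 titles carry the number 2 and the siME2+αKG title carries none, so whether the last library was made together with the others is not known.

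After duplicate removal the ChIP libraries held 13006504 tags for siCtrl, 10445326 for siME2 and 12955596 for siME2+αKG. The lowest listed summit held 8, 7 and 8 fragments in that order, so weaker occupancy could not be seen. Heights below are fragments at the highest summit within 1 kb of a start site, and normalised heights are those per 1000000 filtered tags. None of 11 hepatocyte marker genes, ALB, APOA1 and HNF4A among them, had a promoter peak in any of the 3 lists. Of 11 endothelial and mesenchymal markers 6, 5 and 6 had one in siCtrl, siME2 and siME2+αKG. They were VIM, CDH2, CAV1, FN1 and SPARC in each and THY1 in siCtrl and siME2+αKG. The endothelial genes CDH5, VWF and KDR and the mesenchymal genes COL1A1 and COL1A2 had none. Of 6 leukocyte markers 1 had one in every list. The peaks average over many cells, so fewer occupied cells and less polymerase per cell cannot be told apart.

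Nearly all of the dioxygenase genes carried polymerase at a start site. A promoter peak was listed at 43 of 44 members in siCtrl (97.7%, exact Clopper-Pearson 95% interval 88.0% to 99.9%), 43 in siME2 and 42 in siME2+αKG. Over all protein-coding genes the shares were 63.0%, 61.5% and 60.9%. The members were not a random sample of genes and were chosen with earlier results of these data known, which the interval does not cover. In each list 14 of 19 further oxygenases and relatives (73.7%) had a promoter peak. All 17 genes of a HIF pathway list also had one in each list. All 18 histone demethylase genes, all 14 protein hydroxylase genes and all 3 remaining AlkB genes had one in every list. The exceptions were TET1 in every list and FTO in siME2+αKG.

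The heights lay near those of all genes. The median normalised height was 4.46, 4.60 and 4.01 over the members in siCtrl, siME2 and siME2+αKG, against 4.31, 4.21 and 4.01 over all genes with a summit. In siCtrl 23 of 43 members lay above the median of all genes. By class the siCtrl medians were 5.27 for protein hydroxylases, 4.88 for histone demethylases, 4.07 for the 3 DNA oxygenase genes with a summit, 2.77 for RNA oxygenases and 2.31 for the other AlkB genes. The protein hydroxylases also had the highest and the other AlkB genes the lowest class median in siME2 (5.31 and 1.63) and in siME2+αKG (4.82 and 2.39). Only 1 RNA oxygenase gene, ALKBH5, exceeded the median of all genes in each list.

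**Figure D1:**
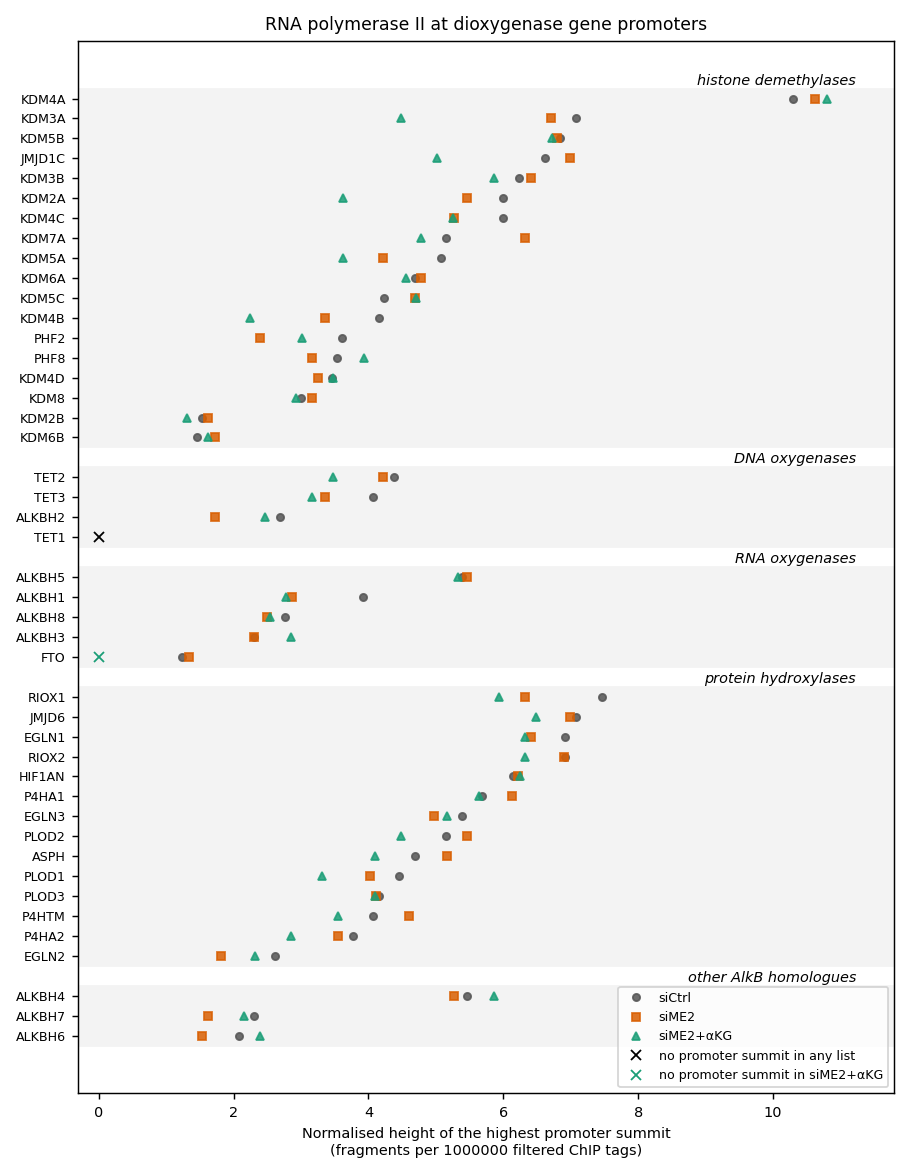
Normalised height of the highest promoter summit (fragments per 1000000 filtered ChIP tags, horizontal axis) at each of the 44 genes, grouped by class and ordered by the siCtrl value, with 1 point per library and a cross where no promoter summit was listed. KDM4A stands above 10 in all 3 libraries, and the siME2+αKG triangles of KDM3A, KDM2A and KDM4B lie left of the other points of their rows.

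The histone demethylase genes spanned the widest range of heights. KDM4A, a demethylase of H3K9 and H3K36, had the highest summit of all members in each library, with 134 siCtrl, 111 siME2 and 140 siME2+αKG fragments. Its normalised heights of 10.3, 10.6 and 10.8 were nearly equal; another coding gene is annotated to start within 1 kb of this summit. KDM3A, which removes H3K9 mono- and dimethylation, held 92, 70 and 58 fragments and was lowest in siME2+αKG. KDM5B, an H3K4 demethylase, held 89, 71 and 87 fragments, or normalised heights of 6.84, 6.80 and 6.72, which were close in all 3 libraries. At the other end, KDM2B and KDM6B held 20 and 19 fragments in siCtrl within 1 kb of a start site.

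Among the DNA oxygenases, TET2 and TET3 convert 5-methylcytosine to 5-hydroxymethylcytosine and ALKBH2 repairs alkylated bases. TET2 held 57, 44 and 45 fragments and TET3 53, 35 and 41, so the siCtrl normalised heights of 4.38 and 4.07 were the highest of the 3 libraries for both. ALKBH2 held 35, 18 and 32 fragments, with siME2 the lowest library at a normalised height of 1.72. TET1, on chromosome 10 with its start at 70320094, had no peak over the gene or near any of its start sites.

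The RNA oxygenases act on modified bases of mRNA and tRNA. ALKBH5, an N6-methyladenosine demethylase, held 70, 57 and 69 fragments, equal to normalised heights of 5.38, 5.46 and 5.33. ALKBH1, which acts on tRNA, held 51, 30 and 36 and was highest in siCtrl. ALKBH8, which modifies the wobble uridine of tRNA, held 36, 26 and 33. FTO, the other N6-methyladenosine demethylase, was the lowest of the class with 16 siCtrl and 14 siME2 fragments. ALKBH3, a demethylase of alkylated RNA and single-stranded DNA, held 30, 24 and 37 and was highest in siME2+αKG.

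The protein hydroxylase class was led by RIOX1, JMJD6, EGLN1 and RIOX2. RIOX1, a ribosomal protein histidyl hydroxylase, held 97, 66 and 77 fragments and was highest in siCtrl. JMJD6, a lysyl hydroxylase of splicing regulators, held 92, 73 and 84. RIOX2, the paralogue of RIOX1, held 90, 72 and 82 fragments. EGLN1, the main prolyl hydroxylase of HIF-α, matched these closely with 90, 67 and 82. HIF1AN, the asparaginyl hydroxylase that limits HIF coactivator binding, held 80, 65 and 81, or normalised heights of 6.15, 6.22 and 6.25. EGLN2, another HIF prolyl hydroxylase, was the lowest of the class with 34, 19 and 30 fragments.

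The endoplasmic reticulum enzymes lay between these. The collagen prolyl hydroxylase subunit genes P4HA1 and P4HA2 had siCtrl normalised heights of 5.69 and 3.77 at their canonical starts. The collagen lysyl hydroxylase genes PLOD2, PLOD1 and PLOD3 had 5.15, 4.46 and 4.15. ASPH, which hydroxylates EGF-like domains, had 4.69, and P4HTM, a membrane-bound prolyl hydroxylase, had 4.07. The 3 remaining AlkB genes were uneven: ALKBH4, an actin lysine demethylase, held 71, 55 and 76 fragments, ALKBH7, a mitochondrial protein, 30, 17 and 28, and ALKBH6 27, 16 and 31. ALKBH6 and ALKBH7 had their lowest normalised heights, 1.53 and 1.63, in siME2.

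Several summits could belong to a neighbour. In siCtrl the highest promoter summit of 9 members lay within 1 kb of the canonical start of another protein-coding gene. Other annotated starts of neighbours were not counted, and 6 members had a noncoding canonical start that near. The members with a coding neighbour were KDM4A, JMJD1C (with REEP3), KDM4D (CWC15), ALKBH1 (SLIRP), FTO (RPGRIP1L), JMJD6 (METTL23), EGLN3 (SPTSSA), PLOD3 (ZNHIT1) and ALKBH4 (LRWD1). Peak lists carry no strand, so the polymerase of such pairs cannot be told apart.

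The summits lay close to the starts. In each list 39 members had their highest summit within 1 kb of the canonical start, the start of the transcript the annotation marks as representative. The median summit was 86, 91 and 89 bp downstream of it in siCtrl, siME2 and siME2+αKG, and 26, 27 and 25 of the 39 lay downstream (66.7%, 69.2% and 64.1%). Over all genes measured the same way the medians were 109, 122 and 135 bp, and 73.7%, 73.1% and 73.5% lay downstream. Beyond promoters 23, 18 and 22 member peaks were listed, with median heights of 18, 15.5 and 18.5 fragments against 53.5, 37 and 46.5 for the promoter peaks. Of the 87 siCtrl member peaks 67 overlapped a peak in both other lists (77%), as did 61.2% of all siCtrl peaks. Peaks that overlapped none made up 9 of the 87 (10.3%) and 21.4% of all siCtrl peaks. These 9 were low, with a median of 13 and a highest value of 18 fragments.

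KDM6B, an H3K27 demethylase on chromosome 17, had its highest peaks inside the gene, the first with its siCtrl summit 1.8 kb past the start. That summit held 69, 58 and 73 fragments in the siCtrl, siME2 and siME2+αKG libraries. A second peak with its summit 8.4 kb past the start in siCtrl held 72, 60 and 87. Altogether 9, 8 and 13 peaks covered 69.0%, 57.4% and 70.1% of the gene, more peaks than at any other member. The lower summits of 19, 18 and 21 fragments within 1 kb of its starts came from peaks that do not overlap between the lists. P4HTM came next with 6 peaks in each list, 1 of them at the start of the downstream gene WDR6 with 71, 52 and 67 fragments.

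Some members were occupied at starts far apart. JMJD1C, on the reverse strand of chromosome 10, had peaks at 3 start regions in all libraries. The outermost, 55.6 kb upstream of the canonical start and near REEP3, held 86 siCtrl, 73 siME2 and 64 siME2+αKG fragments. The canonical start held 57, 54 and 65, and an internal start 196.9 kb downstream of it held 57, 31 and 48. The outermost start was thus the highest of the 3 in siCtrl and siME2, and the canonical one was highest by a single fragment in siME2+αKG. For siME2+αKG over siME2 the log2 ratio was −0.50 (95% counting interval −1.01 to 0.00) at the outermost start, −0.04 (−0.59 to 0.50) at the canonical and 0.32 (−0.36 to 1.02) at the internal start. These intervals overlap, and the difference between the starts was not itself tested.

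KDM2A, a demethylase of H3K36 that also binds unmethylated CpG, was likewise occupied at 2 starts. Its canonical start held 78, 57 and 47 fragments and an internal start 120.9 kb downstream held 44, 28 and 47. The log2 ratio of siME2+αKG over siCtrl was −0.73 (−1.28 to −0.18) at the canonical and 0.10 (−0.52 to 0.73) at the internal start. These intervals overlap too, and the canonical one alone leaves out 0. The difference between the 2 starts was not itself tested. KDM2B, its paralogue, was listed at its canonical start in siME2 alone, with 12 fragments, and at a start 43.6 kb inside the gene with 20, 17 and 17. Its highest peak lay over an exon 113.9 kb inside the gene, with 26, 34 and 24 fragments.

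EGLN3, a HIF prolyl hydroxylase that hypoxia induces, had its highest summit far from its canonical start on chromosome 14. That peak, 511.0 kb upstream at a start region shared with SPTSSA, held 70, 52 and 67 fragments. The canonical start held 23 fragments in siCtrl, none listed in siME2 and 16 in siME2+αKG. At the siME2 depth the siCtrl peak would hold 18.5 fragments, and 49.9% of the siME2 peaks had a summit at or below that. At P4HA2 the peak 66.1 kb upstream of the canonical start, near SLC22A4, held 102, 75 and 89 fragments against 49, 37 and 37 at the canonical start. HIF1AN had a further start 6.2 kb upstream, near NDUFB8, with 56, 41 and 52 fragments.

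**Figure D2:**
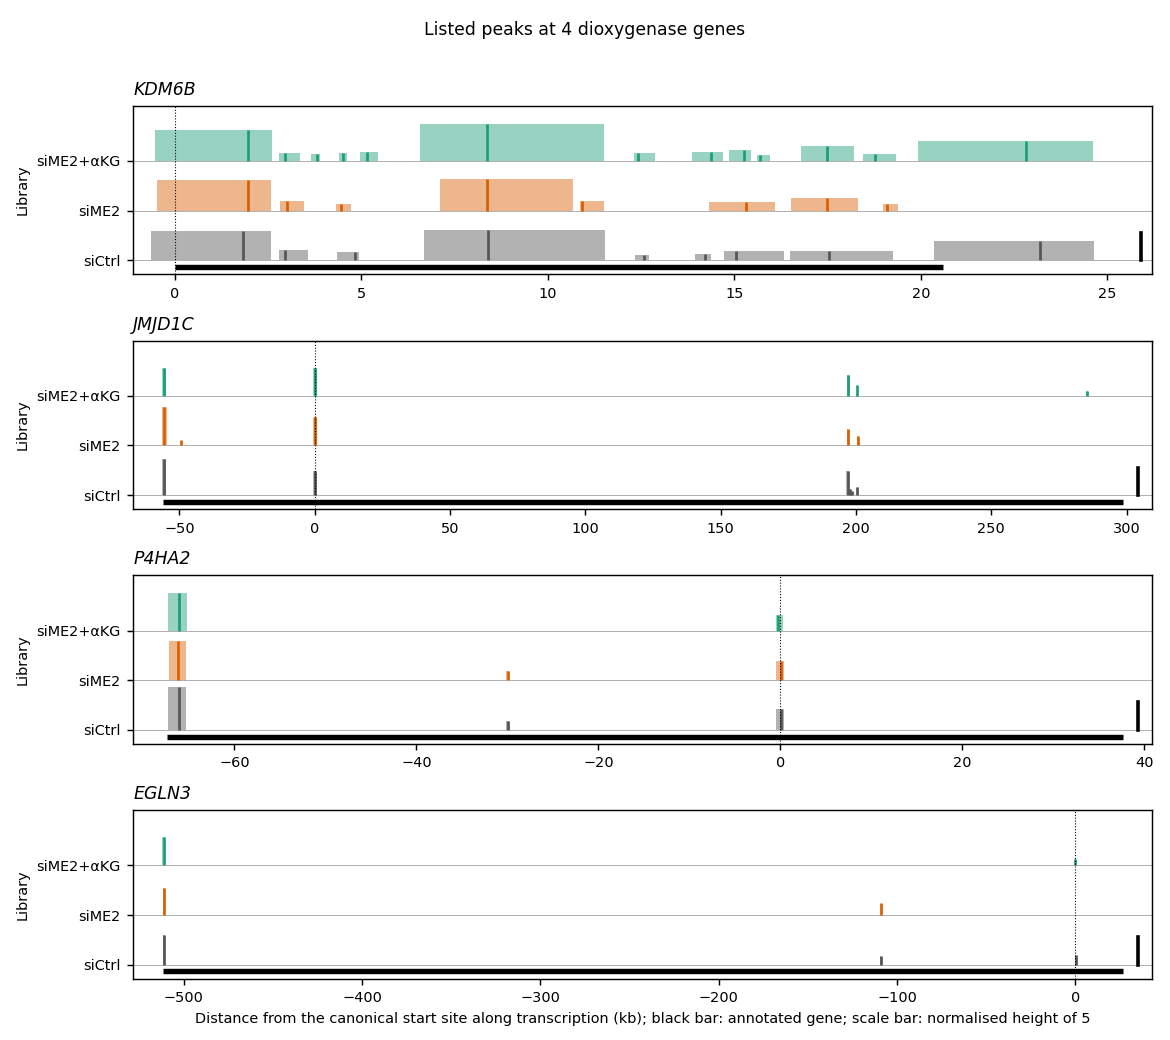
Listed peaks at KDM6B, JMJD1C, P4HA2 and EGLN3 against distance from the canonical start along transcription (kb, horizontal axis); each row is a library, box widths are peak extents, box heights are normalised heights with a scale bar of 5, and a line marks each summit. KDM6B is filled by peaks along the gene, while the other 3 genes carry narrow peaks at widely spaced sites, and the EGLN3 canonical start has none in siME2.

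FTO and TET1 were the members with no promoter peak in some list. The FTO peaks did not coincide: the siCtrl peak lay at chr16:53737516-53737727 with its summit at −505 bp from the canonical start, and the siME2 peak at chr16:53738065-53738290 with its summit at 128 bp. At the siME2+αKG depth they would hold 15.9 and 17.4 fragments, and 28.2% and 37.1% of that list's summits were at or below these values. FTO was 1 of 43 members with a siCtrl promoter peak and none in siME2+αKG, where the share over all genes was 4.22%. It was also 1 of 43 with a siME2 peak and none in siME2+αKG, against 2.82%. From siCtrl to siME2 0 of 43 were missing, against 3.62%, from siME2 to siCtrl 0 of 43 against 1.33%, and from siME2+αKG 0 of 42 against 0.937% in siCtrl and 1.82% in siME2. With canonical starts alone, a choice made after seeing the data, EGLN3 was also missing in siME2 and KDM2B in siCtrl and siME2+αKG.

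Promoters of the 3 members that were lower in siME2+αKG (KDM2A, KDM3A and KDM4B) and of the 4 members whose canonical start lacked a listed peak in at least 1 list (EGLN3, FTO, KDM2B and TET1) are shown for comparison of their letters. Each runs 5′ to 3′ on the gene's strand from 250 bases before to 50 from the canonical start, in the GRCh37 reference genome (hg19), and capitals mark ACGTG or GCGTG on either strand, the core of the hypoxia response element; on the opposite strand these read CACGT and CACGC, and matches may overlap, as in CACGTG.
KDM2A, chr11:66886484-66886783, forward strand: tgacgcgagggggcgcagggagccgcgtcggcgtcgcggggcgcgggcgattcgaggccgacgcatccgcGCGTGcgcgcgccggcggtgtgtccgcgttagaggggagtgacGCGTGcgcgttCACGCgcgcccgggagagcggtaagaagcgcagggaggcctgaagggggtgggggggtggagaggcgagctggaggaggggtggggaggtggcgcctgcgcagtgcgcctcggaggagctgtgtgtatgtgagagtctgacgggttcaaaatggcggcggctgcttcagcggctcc
KDM3A, chr2:86668244-86668543, forward strand: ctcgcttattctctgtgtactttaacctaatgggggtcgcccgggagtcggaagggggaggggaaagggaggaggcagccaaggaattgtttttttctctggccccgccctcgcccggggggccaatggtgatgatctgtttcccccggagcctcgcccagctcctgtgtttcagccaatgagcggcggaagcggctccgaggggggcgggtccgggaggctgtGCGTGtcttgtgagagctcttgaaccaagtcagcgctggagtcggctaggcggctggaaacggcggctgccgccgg
KDM4B, chr19:4968874-4969173, forward strand: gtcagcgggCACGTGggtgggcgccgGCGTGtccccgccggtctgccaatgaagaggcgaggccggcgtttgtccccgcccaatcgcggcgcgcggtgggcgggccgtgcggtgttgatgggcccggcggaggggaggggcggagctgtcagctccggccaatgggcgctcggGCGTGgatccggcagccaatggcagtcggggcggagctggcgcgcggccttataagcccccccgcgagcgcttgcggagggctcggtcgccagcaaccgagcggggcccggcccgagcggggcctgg
EGLN3, chr14:34420231-34420530, reverse strand: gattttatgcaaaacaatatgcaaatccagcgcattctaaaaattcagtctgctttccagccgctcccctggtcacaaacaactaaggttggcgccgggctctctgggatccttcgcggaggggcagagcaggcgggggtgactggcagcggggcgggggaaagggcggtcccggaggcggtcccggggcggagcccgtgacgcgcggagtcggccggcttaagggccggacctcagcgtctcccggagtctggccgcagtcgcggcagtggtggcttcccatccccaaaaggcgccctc
FTO, chr16:53737818-53738117, forward strand: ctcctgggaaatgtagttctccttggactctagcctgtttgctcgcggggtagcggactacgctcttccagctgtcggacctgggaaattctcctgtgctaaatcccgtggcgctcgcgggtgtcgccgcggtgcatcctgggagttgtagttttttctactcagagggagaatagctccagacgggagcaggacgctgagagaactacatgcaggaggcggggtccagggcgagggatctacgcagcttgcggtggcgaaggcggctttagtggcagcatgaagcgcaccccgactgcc
KDM2B, chr12:122018879-122019178, reverse strand: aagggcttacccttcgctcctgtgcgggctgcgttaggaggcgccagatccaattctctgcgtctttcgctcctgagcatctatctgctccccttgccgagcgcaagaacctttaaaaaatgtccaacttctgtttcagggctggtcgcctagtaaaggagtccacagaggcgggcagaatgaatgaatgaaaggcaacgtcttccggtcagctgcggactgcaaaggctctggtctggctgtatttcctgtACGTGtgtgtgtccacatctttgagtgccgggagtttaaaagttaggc
TET1, chr10:70319844-70320143, forward strand: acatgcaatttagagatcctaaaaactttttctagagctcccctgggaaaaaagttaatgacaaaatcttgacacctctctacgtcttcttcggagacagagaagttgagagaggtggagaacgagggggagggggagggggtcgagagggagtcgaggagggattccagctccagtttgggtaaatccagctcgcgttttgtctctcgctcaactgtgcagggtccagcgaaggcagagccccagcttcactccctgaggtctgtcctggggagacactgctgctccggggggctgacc

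In these windows KDM4B held 4 matches, KDM2A 3, and KDM3A and KDM2B 1 each, and the EGLN3, FTO and TET1 windows held none. Over the members 31 of 44 windows had at least 1 match (70.5%), and over 19862 protein-coding genes 56.6% did. The TATAAA motif was in 1 member window, that of P4HA1 (2.27%, against 9.63% of all), and CCAAT was in 15 (34.1%, against 36%). ACTTCCGG, an ETS motif, was in 4 (9.09%, against 6.17%), and the palindromic NRF1 consensus was in 0 against 1.7%. Each motif was searched on both strands. The members' windows had a median GC content of 66% and a median observed over expected CpG ratio of 0.873, against 63.7% and 0.777 over all genes. TET1, with a GC content of 54.3%, had the lowest CpG ratio of the members, 0.463.

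The first comparison asks how the knockdown library differed from the control library. Over 43 members with a summit in both lists the median log2 ratio of siME2 over siCtrl was −0.05, and over 12005 genes it was −0.04. The members' ratios ran from −0.64 to 0.29, with 27 below and 16 above 0. By class the medians were 0.01 for histone demethylases, −0.28 for the 3 DNA oxygenases, −0.01 for RNA oxygenases, −0.01 for protein hydroxylases and −0.44 for the 3 other AlkB genes. The lowest medians thus came from the 2 classes of 3 genes.

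Past 1.5-fold, the size used here to call a difference, 2 of 43 members were lower in siME2, against 3.17% of all genes, and 0 were higher, against 1.49%. ALKBH2, at 35 and 18 fragments in siCtrl and siME2, had a log2 ratio of −0.64 (−1.55 to 0.22). PHF2, an H3K9 demethylase on chromosome 9, at 47 and 25 fragments had −0.59 (−1.36 to 0.14), and −0.56 relative to the median of all genes, which is short of 1.5-fold. Relative to that median 1 member (ALKBH2) was lower, against 2.59% of all genes, and 0 were higher, against 1.91%. Both intervals include 0. By the second rule, an interval that leaves out 0, 0 members were called, against 1.56% of all genes below 0 and 0.625% above. EGLN2 (−0.52), ALKBH7 (−0.50), ALKBH1 (−0.45) and ALKBH6 (−0.44) came next, none of them past 1.5-fold.

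The second comparison asks what differed when α-ketoglutarate was added to the knockdown. It shares the siME2 library with the first, so a low siME2 height enters both. The median log2 ratio of siME2+αKG over siME2 was −0.08 over 42 members and −0.08 over 11834 genes. By class it was −0.10 for histone demethylases, −0.08 for DNA oxygenases, 0.00 for 4 RNA oxygenases, −0.11 for protein hydroxylases and 0.41 for the other AlkB genes. The last class was higher in siME2+αKG at each of its 3 genes, with 0.16 at ALKBH4, 0.41 at ALKBH7 and 0.64 at ALKBH6, the last from peaks that do not overlap.

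In this comparison 1 of 42 members was lower past 1.5-fold, against 4.43% of all genes, and 1 was higher, against 1.41%. The lower one was KDM2A, at 57 fragments in siME2 and 47 in siME2+αKG, with −0.59 (−1.18 to −0.01). The higher one was ALKBH6, at 16 and 31, with 0.64 (−0.27 to 1.61), but these summits belong to different peaks, at 127 bp and −484 bp from the canonical start. At the peak listed in both libraries ALKBH6 held 16 and 28 fragments, with 0.50 (−0.44 to 1.48), short of 1.5-fold. With overlapping peaks alone, a choice made after seeing the data, 0 members were higher past 1.5-fold, against 1.37% of all genes. Intervals lay below 0 at 2 members, KDM2A and KDM3A, against 2.7% of all genes, and above 0 at 0 members, against 0.499%. KDM3A, at 70 and 58 fragments, had −0.58 (−1.11 to −0.06), just short of 1.5-fold. KDM4B, an H3K9 demethylase, had the same ratio at 35 and 29 fragments with a wider interval (−1.34 to 0.17). Relative to the median of all genes 0 members were lower past 1.5-fold, with KDM2A at −0.51, against 2.87% of all genes. On that scale 2 were higher, ALKBH6 and ALKBH2, against 2.21%; at its shared peak ALKBH6 was short of 1.5-fold on that scale too.

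The third comparison sets the supplemented knockdown against the control. Here the median of all 11910 genes was itself −0.13, and that of 42 members was −0.12, or 0.00 relative to all genes. Relative to all genes 18 members lay below 0 and 22 above. Class medians relative to all genes were 0.03 for histone demethylases, −0.21 for DNA oxygenases, 0.06 for RNA oxygenases, −0.02 for protein hydroxylases and 0.23 for the other AlkB genes.

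Members lower past 1.5-fold were 3 of 42, against 4.42% of all genes, and 0 were higher, against 0.739%; relative to the median of all genes 2 were lower, against 2.1%, and 0 higher, against 1.47%. All 3 were histone demethylase genes. KDM4B, at 54 and 29 fragments in siCtrl and siME2+αKG, had −0.89 (−1.60 to −0.21), and −0.76 relative to all genes. KDM2A, at 78 and 47 fragments in the highest peak of its canonical start, had −0.73 and −0.60 relative to all genes. KDM3A, at 92 and 58 fragments, had −0.66 (−1.16 to −0.17) and −0.53 relative to all genes, which is short of 1.5-fold. The same 3 members had intervals below 0, against 3.09% of all genes, and 0 had one above 0, against 0.193%.

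Across genes this ratio was lower where the start window held more than about 65% GC. The median log2 ratio of siME2+αKG over siCtrl was −0.11 in each of 3 ranges below 65%, among them 2305 genes with 60% to 65% GC, −0.13 over 2485 genes with 65% to 70%, −0.15 over 2174 genes with 70% to 75% and −0.18 over 2144 genes from 75% upwards. The KDM3A window had 64% GC, that of KDM2A 72.7% and that of KDM4B 76.7%; the part of GC content in their ratios was not tested. Estimated fragment lengths also differed between the libraries, 211 bp in siCtrl, 201 bp in siME2 and 221 bp in siME2+αKG. With heights also divided by fragment length, the ratios at KDM4B, KDM2A and KDM3A were −0.96, −0.79 and −0.73. That division shifts the ratio of every gene by the same amount, so the values relative to all genes stay as given above.

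**Figure D3:**
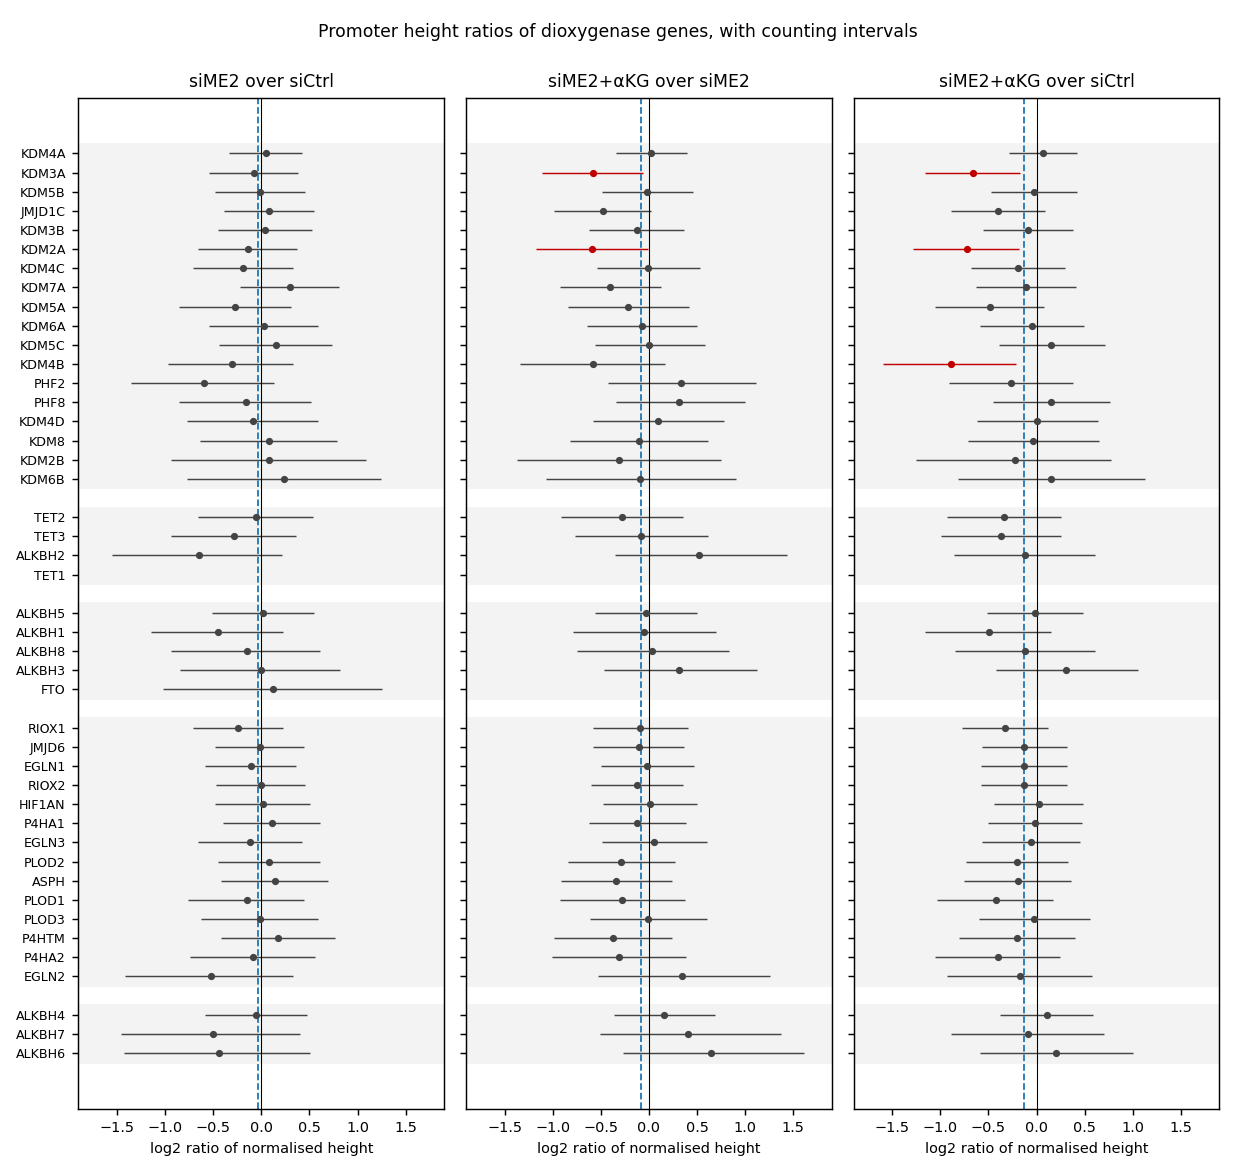
Log2 ratio of normalised promoter heights for each member in the 3 comparisons (horizontal axes), grouped by class, with exact 95% counting intervals as bars; red marks intervals that leave out 0 and the dashed blue line the median of all genes. Red marks appear at KDM2A and KDM3A for siME2+αKG over siME2, and at these and KDM4B for siME2+αKG over siCtrl.

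Within the demethylase families the ratios lay on both sides of the median of all genes. Of the KDM4 genes, with fragments in siCtrl and siME2+αKG, KDM4A held 134 and 140, KDM4C 78 and 68, KDM4D 45 and 45, and KDM4B 54 and 29. Relative to all genes the log2 ratio was 0.20 at KDM4A, −0.06 at KDM4C, 0.13 at KDM4D and −0.76 at KDM4B. Of the KDM3 family, KDM3A was lower in siME2+αKG than KDM3B, which held 81, 67 and 76 fragments with a ratio of −0.09 (−0.56 to 0.38) over siCtrl. KDM5A held 66, 44 and 47 fragments against 55, 49 and 61 at KDM5C, both H3K4 demethylases; the KDM5A ratio of siME2+αKG over siCtrl was −0.48 (−1.06 to 0.08) and that of KDM5C 0.15 (−0.39 to 0.71). The H3K27 demethylase gene KDM6A held 61, 50 and 59, equal to normalised heights of 4.69, 4.79 and 4.55. PHF8 held 46, 33 and 51 and KDM7A, of the same family, 67, 66 and 62. KDM8, also known as JMJD5, held 39, 33 and 38.

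Counting error was wide at these heights. The median interval over the members reached 0.58 log2 units to either side for siME2 over siCtrl, 0.60 for siME2+αKG over siME2 and 0.56 for siME2+αKG over siCtrl. Differences under about 1.5-fold were therefore not detectable at most members at this depth. The members' counts past 1.5-fold were near the shares over all genes in each comparison.

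**Figure D4:**
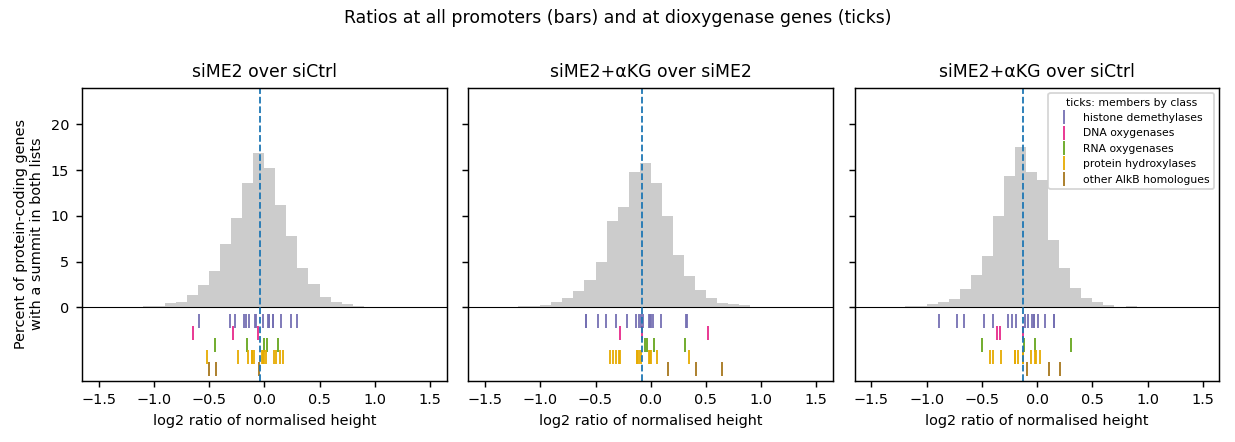
Distribution of log2 ratios between −1.5 and 1.5 over all protein-coding genes with a summit in both lists (bars, percent of these genes, vertical axis) for the 3 comparisons, with a tick for each member in a row per class below. The member ticks lie around the centre of each distribution, with KDM4B at −0.89 in the third comparison among the outermost.

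A list of further α-ketoglutarate-dependent oxygenases and JmjC relatives was set beside the members. Of its 19 genes 14 had a promoter peak in each list, and P4HA3, PHYHD1, BBOX1, HR and KDM4E had none. Their median log2 ratios were 0.04, −0.16 and −0.16 in the 3 comparisons in the order above. The collagen prolyl 3-hydroxylase genes P3H2, with 50, 36 and 30 fragments, and P3H3, with 43, 38 and 30, were the lowest in siME2+αKG over siCtrl (−0.73 and −0.51) and over siME2 (−0.57 and −0.65).

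All 17 genes of the HIF pathway list had a promoter peak in every list, and their medians were −0.13, −0.03 and −0.17. VEGFA, the angiogenic HIF target, held 89, 52 and 67 fragments, and HIF1A itself 85, 59 and 79. Both were lowest in siME2 as counts and as normalised heights. In siME2 over siCtrl 11 of the 17 genes lay below 0 (64.7%, against 56.5% of all genes) and 6 above. VEGFA was the lowest of the list at −0.46 and MXI1 the highest at 0.38. Past 1.5-fold 0 of the 17 were called there, against 3.17% of all genes lower and 1.49% higher. Intervals left out 0 at 0 of them, against 1.56% of all genes below 0 and 0.625% above. In siME2+αKG over siME2 1 of 16 was lower past 1.5-fold, against 4.43% of all genes, and 0 were higher, against 1.41%. The lower gene was BHLHE40, with 63, 58 and 44 fragments and a log2 ratio of −0.71. Of 11 genes for collagens and their processing, 7, 7 and 8 had a promoter peak. The fibrillar collagen genes COL1A1, COL1A2 and COL3A1 had none in any list. COL5A1, also a fibrillar collagen gene, had one in each, with 61, 57 and 47 fragments. P4HB, the partner subunit of the P4HA enzymes, held 104, 74 and 88 fragments. The list medians were −0.17, −0.06 and −0.11.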

How the data were processed

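RNA polymerase II ChIP peak lists of 3 libraries were used; the 3 inputs entered only through the peak caller. Alignment to hg19 used Bowtie2 2.3.5.1 and peak calling MACS2 2.2.6, per the submitters' processing notes, whereas MACS 2.2.7.1 stands in the file headers; the release that made the lists remained unknown. Every list came from 1 ChIP library set against its own input, called at a p-value of 1e-05 with duplicates removed, per the file headers. The deposited pileup is a signal, the extended fragments over the summit, and the siME2+αKG pileup had been scaled by the authors by 0.9. Dividing by that factor gave fragments within 0.0055 of whole numbers. The authors' fold enrichment is a ratio of pileup to local background. The deposited −log10 p and −log10 q were used only as a filter.

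Genes came from GENCODE 44 mapped to GRCh37. Ratio intervals are exact conditional binomial (Clopper-Pearson) 95% intervals, which cover counting error alone: they compare libraries rather than conditions. Scripts used Python 3.11.15, numpy 2.4.6, pandas 2.3.3 and scipy 1.17.1 and were tested on simulated data. The members and lists were chosen with earlier results of these data known. Values per library were given for the 3 highest members and the lowest member of each class, members lacking a promoter peak in a list, members past 1.5-fold or with an interval leaving out 0, the 3 members with most peaks beyond promoters, and members whose highest summit changed start site by over 2 kb. Other members were named to complete their families, after their values were seen. PECAM1 was not used here. Alternatives covered window, peak threshold, transcripts, scaling and fold.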

Additional observations from a re-analysis of the deposited data

How the results depend on the processing

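No paired analysis was possible because each condition had 1 ChIP library, so no test could carry a pairing term. Direction did not reverse for any called value under the alternatives run, most of which reuse the summit counts that gave the call. Counts of members with a promoter peak were within 1.5 times under windows of 500 bp and 2 kb, the stricter q filter, protein-coding transcripts and canonical starts. Beyond 1 kb of starts 11, 11 and 9 members had a peak in siCtrl, siME2 and siME2+αKG. With protein-coding transcripts siME2 lacked 1 member listed in siCtrl (EGLN3) and 1 listed in siME2+αKG. With canonical starts, added after seeing the data, these counts were 1 and 1, and of members listed in siME2 1 was missing from siCtrl and 2 from siME2+αKG. With all annotated starts the corresponding shares over all genes were 3.62%, 1.82%, 1.33% and 2.82%. Shares over all genes under the narrower start sets are not given here.

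The authors' fold enrichment, which divides by a local background, gave member medians of −0.14 for siME2 over siCtrl and −0.28 for siME2+αKG over siCtrl. By class it gave −0.23 (histone) and −0.91 (DNA) in the first, and −0.22 (histone) and −0.29 (protein) in the last. Medians of all genes under this measure are not given here, so these values do not show a drop particular to the members. Past 1.5-fold it called 11 lower (17.9% of all genes) and 0 higher (9.64%) in the first comparison. In the second it called 7 lower (17.8%) and 6 higher (11%), and in the third 13 lower (22.8%) and 2 higher (8.13%). More of all genes were thus lower than higher too. Relative to the median of all genes 1 was lower in the first, 0 lower and 2 higher in the second, and the third had medians of 0.004 (members) and 0.032 (histone). Scaling also per fragment length, added after seeing the data, gave −0.21 (members) and −0.23 (histone) in the second, with 4 lower (9.51% of all genes) and 0 higher (0.684%), and 0 lower in the first (2.1%). That scaling shifts every gene by the same amount, so medians relative to all genes do not change. Less local background, 3 were lower in the second (5.56%). Taking the highest summit of any assigned peak, added after seeing the data, 1 was higher in the first (1.4% of all genes) and 2 lower (4.17%) and 0 higher in the second. With overlapping peaks alone, likewise added, 0 were higher in the second. At 1.3-fold 6 were lower in the first (10.4% of all genes) and 8 lower in the third (15.4%). In the second 5 were lower (13.5%) and 3 higher (4.66%). At 2-fold 0 were lower in the first (0.292% of all genes), the second (0.456%) and the third (0.327%), and 0 higher in the second (0.118%). Where not shown by construction, the cause was not tested.

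KDM4B, KDM2A and KDM3A stayed lower in siME2+αKG than in siCtrl under each alternative, from −0.96 to −0.76, −1.05 to −0.60 and −0.73 to −0.53. These members were picked by this same ratio, and most alternatives reuse the same summit counts, so their direction is no separate support. Depth limits low promoters most, since 16 to 35 fragments underlie the ALKBH2 and ALKBH6 ratios.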

Other observations

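Genes of methyltransferases of histones, DNA and RNA that oppose the erasers, or of subunits of their complexes such as WTAP, all had a promoter peak in every list (24 of 24). Their median log2 ratios were 0.04 for siME2 over siCtrl, −0.13 for siME2+αKG over siME2 and −0.20 for siME2+αKG over siCtrl, beside −0.04, −0.08 and −0.13 over all genes. DNMT3A, a de novo DNA methyltransferase, held 22 siCtrl, 23 siME2 and 12 siME2+αKG fragments, and was the lowest of the list in siME2+αKG over siME2 at −1.25. DNMT1, the maintenance DNA methyltransferase, held 88, 50 and 66 and was the lowest in siME2 over siCtrl at −0.50. Past 1.5-fold 0 of 23 genes were called in siME2 over siCtrl, against 3.17% of all genes lower and 1.49% higher. For siME2+αKG 1 of 23 was lower over siME2, against 4.43% of all genes, and 1 of 23 over siCtrl, against 4.42%. EZH2, the H3K27 methyltransferase, held 77, 50 and 65. The flavin-dependent demethylase genes KDM1A and KDM1B, which do not use α-ketoglutarate, both had a promoter peak in every list.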
